A study of Mus musculus with 4 samples.

Results

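Genes that are expressed from only 1 parental copy, and that act on growth before birth, were read in Flk-1 positive mesoderm cells sorted by an Etv2 reporter. The group comprised 9 genes chosen by name: Igf2, Igf2r, H19, Mest, Peg3, Dlk1, Meg3, Plagl1 and Grb10. Of these, 8 had at least 1 probe set annotated to that gene alone and were followed among the 18193 genes measured, each on the probe set with the highest mean over the 4 arrays. H19 had no such probe set, and the probe set that it shares with another gene is described separately.

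The cells were mouse TT2 embryonic stem cells in which 1 Etv2 allele carries a Venus fluorescent reporter, grown on OP9 mouse bone marrow stromal cells and labelled as day 5 of differentiation. All cells analysed were heterozygous for the reporter and had been sorted as positive for Flk-1, a receptor for VEGF and the product of Kdr. They were then separated into Etv2-Venus positive cells (2 arrays) and Etv2-Venus negative cells (2 arrays), with the arrays of each population numbered 1 and 2. Whether the 2 arrays of a population stem from different cultures is not in the labels, and p-values therefore reflect only how these particular arrays vary, possibly for technical reasons. OP9 cells are of the same species, so their RNA would be read by the same probes. Values are log2 expression, and array medians lay between 5.46 and 5.52.

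An imprinted gene carries a mark, laid down in the egg or the sperm, that silences 1 of its parental copies. Many imprinted genes act on fetal growth: Igf2 is a growth factor made from the paternal copy, whereas Igf2r and Grb10, made from the maternal copy in most mouse tissues, limit signalling by insulin-like growth factors. Several lie next to each other in clusters, such as Igf2 with H19 and Dlk1 with Meg3. The arrays read RNA of both copies together and do not tell the parental alleles apart.

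The labels were checked on 3 genes. Etv2 measured 12.64 and 12.41 on the positive arrays, against 12.03 and 11.87 on the negative arrays. Kdr measured 12.64 and 12.81 in positive cells, against 12.51 and 12.68 in negative cells, so both populations carried the gene used for the first sort. Pdgfra, which marks early and paraxial mesoderm, read 8.55 and 7.67 in positive cells, against 10.11 and 9.41 in negative cells.

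The comparison of Etv2-Venus positive with negative cells asks which genes differ within Flk-1 mesoderm by reporter activity. Among the 8 imprinted genes, Peg3 was the member furthest apart, lower in the positive cells on 3 of its probe sets. Dlk1 was lower and Mest higher by smaller amounts, and Igf2, Igf2r, Grb10, Plagl1 and Meg3 had overlapping arrays. No member passed an adjusted p of 0.05 in limma, nor did any of the 18193 genes (0.00%), of which 2131 (11.7%) had an unadjusted p under that value. Between the arrays numbered 1 and 2, in contrast, Igf2r, Meg3 and Igf2 stood further apart than between the populations, each lower on array 1 in both populations.

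**Figure D1:**
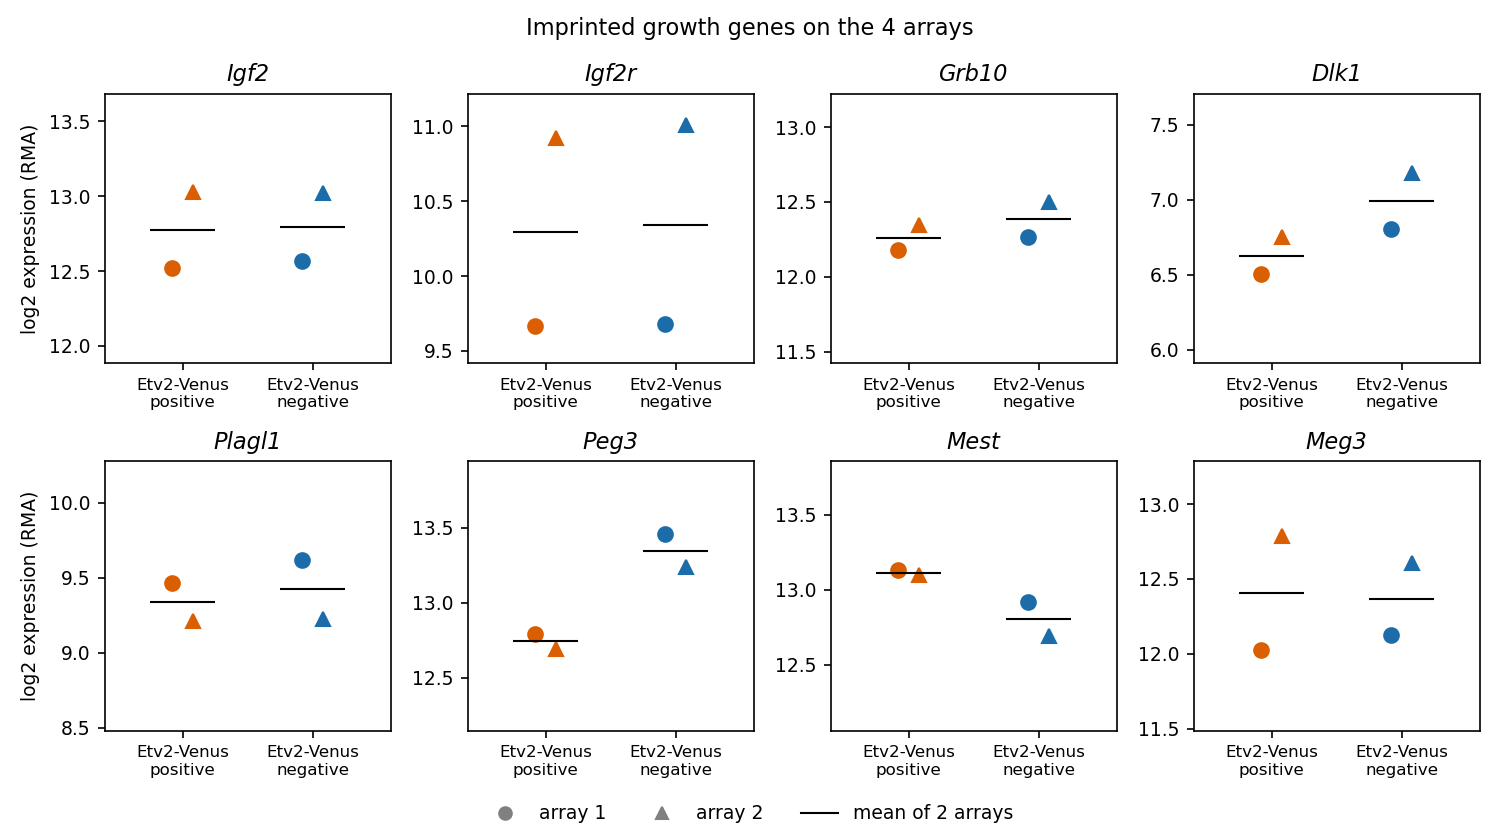
Log2 expression (RMA) of the 8 imprinted growth genes on the 4 arrays, with Etv2-Venus positive cells left and negative cells right in each panel, circles for array 1, triangles for array 2 and lines for the mean of the 2 arrays. All panels span the same range of log2 units. Peg3, Dlk1 and Mest separate by population, and Igf2r, with 9.66 and 9.68 on arrays 1 against 10.92 and 11.01 on arrays 2, separates by array number.

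Igf2, the growth factor, was at 12.52 and 13.02 in positive cells, against 12.57 and 13.02 in negative cells. The values of the populations coincided within each array number, and array 1 was the lower one in both. The difference between the populations was -0.02 (SE 0.24, n = 2 arrays each, limma adjusted p = 0.990), with a 95% interval from -0.64 to 0.60. This fit has no term for array number, and in it differences of up to about that size cannot be told from none. With the array number as a block the SE was 0.06, though the labels do not say that the numbers pair the samples. The other Igf2 probe set had a mean of 5.29, near the array medians, and the populations overlapped on it, at 0.05 (SE 0.60).

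Igf2r, which carries IGF2 and mannose 6-phosphate tagged proteins to the lysosome, was at 9.66 and 10.92 in positive cells, against 9.68 and 11.01 in negative cells. Both arrays numbered 1 lay more than a log2 unit below both arrays numbered 2, whatever the population. The difference between the populations was -0.05 (SE 0.60; limma adjusted p = 0.992). Its 95% interval ran from -1.63 to 1.53, the widest of the 8 members. The SE of this difference was 0.06 with the array number as a block. Within the arrays numbered 1 the populations differed by -0.02 and within those numbered 2 by -0.08.

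Grb10, an adaptor that binds the insulin and IGF1 receptors and dampens their signal, was at 12.18 and 12.34 in positive cells, against 12.27 and 12.50 in negative cells. The populations overlapped, with a difference of -0.12 (SE 0.13; limma adjusted p = 0.817). A dimmer probe set, at 6.14 and 7.16 in positive cells against 6.87 and 7.59 in negative cells, also overlapped, at -0.58 (SE 0.43). The remaining Grb10 probe set, with a mean of 5.97, overlapped as well, at 0.06 (SE 0.29).

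Dlk1, a transmembrane relative of the Notch ligands that holds back adipocyte differentiation, was at 6.50 and 6.75 in positive cells, against 6.81 and 7.18 in negative cells. Both positive arrays lay below both negative arrays, by a narrow margin. The difference was -0.37 (SE 0.17, 0.776-fold), with a 95% interval from -0.81 to 0.08 (limma adjusted p = 0.509). It was -0.30 on the arrays numbered 1 and -0.43 on those numbered 2. The other Dlk1 probe set had a mean of 3.88, below the array medians, and the populations overlapped on it, at -0.06 (SE 0.12).

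Peg3, a large zinc finger protein expressed from the paternal copy, was at 12.79 and 12.69 in positive cells, against 13.46 and 13.23 in negative cells. The positive arrays were the lower ones, and the gap between the populations exceeded the spread within either. The difference was -0.60 (SE 0.12, 0.658-fold), with a 95% interval from -0.91 to -0.30, an unadjusted p of 0.00439 and an adjusted p of 0.150 in limma. It was -0.67 on the arrays numbered 1 and -0.54 on those numbered 2. Ranked from the low end, Peg3 stood at 294 of the 18193 genes.

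Other Peg3 probe sets gave the same direction. A second one was at 10.87 and 11.31 in positive cells, against 11.76 and 11.95 in negative cells, a difference of -0.76 (SE 0.19). The third was at 9.82 and 9.53, against 10.51 and 10.28, a difference of -0.72 (SE 0.16). The remaining 2 had means of 2.72 and 2.71, far below the array medians, and carried no usable signal. In a bulk sample, fewer cells that express a gene and less RNA per cell cannot be told apart, here as for the other members. The direction of Peg3 was kept under all 12 alternatives run, but most of them could not change it. Those that altered only the variance model, the genes or probe sets tested, or the block left the difference as it was. Leaving out an array could not reverse it, as the arrays of the populations were apart. It was -0.41 with probe sets averaged, -0.61 with quantile normalization run again and -0.57 with arrays centred on their medians. With every array kept, limma adjusted p ran from 0.0167 to 0.328. Peg3 passed 0.05 only with the array number as a block together with a variance trend and robust estimation. That setting was added after the data were seen.

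Plagl1, a zinc finger transcription factor known in mouse to act on other imprinted genes, Igf2 and H19 among them, was at 9.46 and 9.21 in positive cells, against 9.62 and 9.22 in negative cells. The populations overlapped, with a difference of -0.09 (SE 0.18; limma adjusted p = 0.926). By their names, the probe sets used for Plagl1 and Meg3 hold probes that may match other transcripts as well. The other 2 Plagl1 probe sets had means of 5.73 and 4.16, near or below the array medians.

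Mest, a protein with the fold of a hydrolase expressed from the paternal copy, was at 13.13 and 13.10 in positive cells, against 12.92 and 12.69 in negative cells. Both positive arrays lay above both negative arrays. The difference was 0.31 (SE 0.11, 1.24-fold), with a 95% interval from 0.01 to 0.60 and an adjusted p of 0.406 in limma. Mest had 1 probe set, so no other reading of it was at hand.

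Meg3, a long noncoding RNA expressed from the maternal copy beside Dlk1, was at 12.03 and 12.78 in positive cells, against 12.13 and 12.61 in negative cells. The highest and the lowest value both came from positive cells. The difference was 0.04 (SE 0.30; limma adjusted p = 0.986), and its 95% interval ran from -0.76 to 0.84. It was -0.10 on the arrays numbered 1 and 0.18 on those numbered 2.

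H19, a maternally expressed noncoding RNA next to Igf2, is the host of the microRNA gene Mir675, and the single probe set that names it is annotated to both genes. It was at 10.71 and 11.05 in positive cells, against 10.36 and 10.75 in negative cells, so the populations overlapped, with a difference of 0.33 (SE 0.20; limma adjusted p = 0.741 over every probe set). On the arrays numbered 1 the populations differed by 0.35 and on those numbered 2 by 0.30. The signal cannot be given to either gene alone. The mature microRNAs of Mir675 from RefSeq are shown because they are the other product that the annotation names for this probe set. They lie within H19 on the minus strand of GRCm38.p6, at chr7:142577112-142577133 for the 5p and chr7:142577078-142577099 for the 3p form, with the seed, bases 2 to 8, in capitals.
mmu-miR-675-5p: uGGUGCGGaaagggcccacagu
mmu-miR-675-3p: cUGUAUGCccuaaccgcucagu

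Counted over the 8 members, 1 had both positive arrays above both negative arrays, a pattern seen for 22.4% of all genes, and 2 had them below, seen for 17.0%, so that 3 members had arrays apart in either direction, against 39.5% of genes. These shares are near the background. At an unadjusted p under 0.05, 1 member, Mest, was higher and 1, Peg3, lower, against 7.07% and 4.64% of all genes. The median difference was -0.07 over the members and 0.01 over all genes. None of the 8 reached a 2-fold difference, which 0.599% of genes did in the higher and 0.423% in the lower direction. Peg3, Dlk1 and Mest, the members with arrays apart, are all expressed from the paternal copy, as are Igf2 and Plagl1, which overlapped. The maternally expressed Igf2r, Grb10 and Meg3 overlapped too.

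Marker lists of several cell types were also read between the populations. Over all genes, 22.4% were higher and 17.0% lower in positive cells with arrays apart, and the median difference was 0.01. Of 10 endothelial markers 8 were higher in positive cells with arrays apart, with a median difference of 0.97 and log2 values summing to 87.9 and 88.9 in positive cells, against 80.2 and 80.5 in negative cells. Of 10 markers of the primitive streak and lateral mesoderm 9 were lower, with a median of -1.18 and sums of 82.6 and 81.0, against 94.9 and 92.5. Of 24 stromal markers 7 were lower and 0 higher, with a median of -0.23, and of 7 pluripotency markers 2 were lower and 0 higher, with a median of -0.48. The part of any difference in cell makeup in the values of Peg3, Dlk1 and Mest was not tested.

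**Figure D2:**
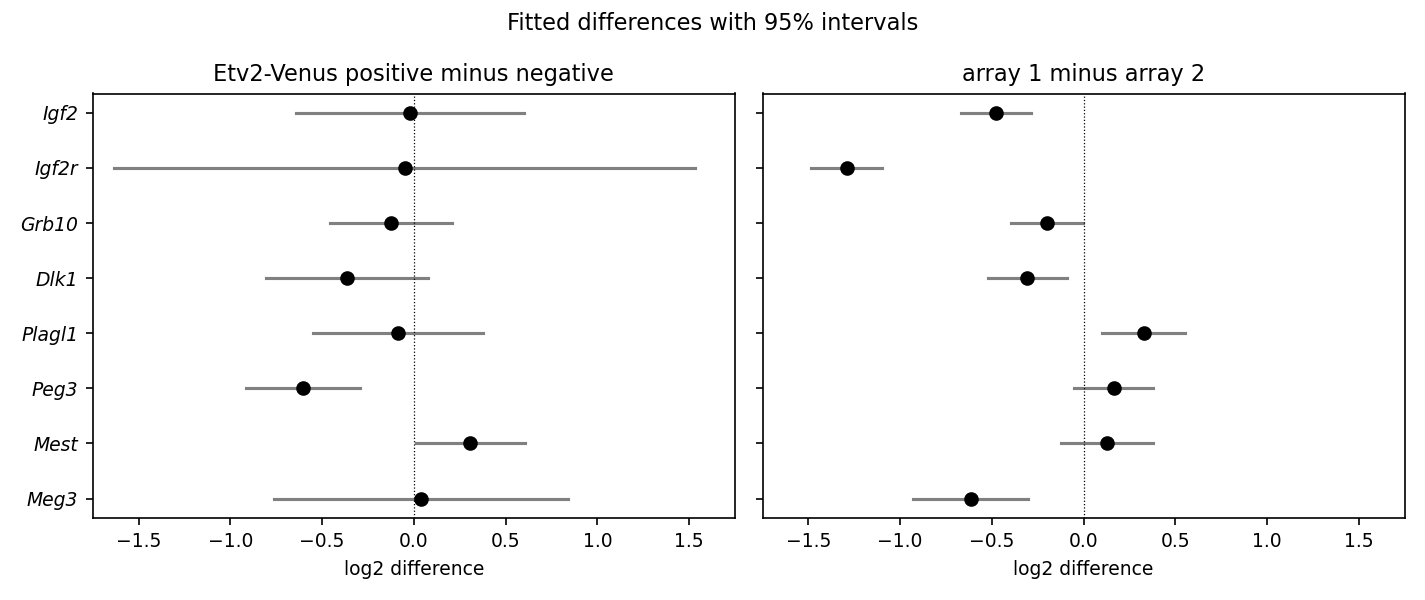
Fitted log2 differences with 95% intervals (grey bars) for the 8 members, Etv2-Venus positive minus negative cells left and array 1 minus array 2 right, on the same axis. The left fit has no term for array number and the right fit keeps the population, so bar widths are not comparable between the panels. The population interval of Peg3 lies below 0 and that of Mest starts at 0.01, while the array number intervals of Igf2r, Meg3, Igf2, Dlk1 and Grb10 lie below 0 and that of Plagl1 above it.

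The arrays numbered 1 were then compared with those numbered 2, with the population kept as a term. Of the 8 members, 5 were lower on array 1 in both populations (20.4% of all genes) and 3, Plagl1, Peg3 and Mest, were higher on array 1 in both (45.8%). For 4 members, Igf2, Igf2r, Grb10 and Meg3, both arrays numbered 1 lay below both numbered 2, a pattern seen for 11.6% of all genes, and for 1 member, Plagl1, they lay above (29.7%), which makes 5 members apart in either direction, against 41.2% of genes. The median over the members was -0.25, against 0.06 over all genes. No gene passed an adjusted p of 0.05 in limma (0.00%), with a smallest value of 0.199. At an unadjusted p under 0.05, 5 members were lower on array 1 (5.34% of all genes) and 1 was higher (14.5%), together 6 members against 19.9% of genes. The labels do not say what the array number stands for, and the fit has 1 residual degree of freedom per gene, so its errors rest largely on the spread of other genes.

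Igf2r had the largest difference by array number among the members, -1.29 (SE 0.06, 0.409-fold), being -1.26 in positive and -1.32 in negative cells. Only 12 of the 18193 genes were lower. Its limma adjusted p was 0.199, and over 6 alternatives added after the data were seen it ran from 0.0358, among genes with a mean of at least 6, to 0.122. With a variance trend and robust estimation it was 0.0412.

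Meg3 followed at -0.62 (SE 0.10), with -0.76 in positive and -0.48 in negative cells, and stood at 154 from the low end. Igf2 differed by -0.48 (SE 0.06), being -0.50 in positive and -0.45 in negative cells, so that its level on array 1 was 0.719 times that on array 2. Among these alternatives Igf2 was called only with the variance trend and robust estimation together (limma adjusted p = 0.0412; range over the alternatives 0.0412 to 0.141). Dlk1, at -0.31 (SE 0.07), and Grb10, at -0.20 (SE 0.06), went the same way. Plagl1 differed by 0.33 (SE 0.07), Peg3 by 0.16 (SE 0.07) and Mest by 0.13 (SE 0.08). The other 2 Plagl1 probe sets, with means of 5.73 and 4.16, went the other way, at -0.20 (SE 0.10) and -0.14 (SE 0.11).

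The 8 members were read by 29 probe sets, of which 21 had a mean of at least 6. Meg3 had 10 of these 21. All 10 were lower on array 1, by differences from -1.28 to -0.26, and for 9 of them both arrays numbered 1 lay below both numbered 2. By population the same 10 probe sets ran from -0.42 to 0.25, with 7 lower and 3 higher in positive cells. The remaining Meg3 probe set had a mean of 5.89 and overlapped by population, at -0.07 (SE 0.11). The second Igf2r probe set, at 9.89 and 10.28 in positive cells against 9.71 and 10.05 in negative cells, differed by -0.37 (SE 0.07) by array number. This was in the direction of the first but smaller. The second Grb10 probe set differed by -0.87 (SE 0.11), more than the -0.20 of the brighter one. The 3 Peg3 probe sets split, with -0.31 on 1 and 0.16 and 0.27 on the others, so Peg3 had no settled direction by array number. The probe set of H19 and Mir675 was also lower on array 1, by -0.37 (SE 0.07).

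**Figure D3:**
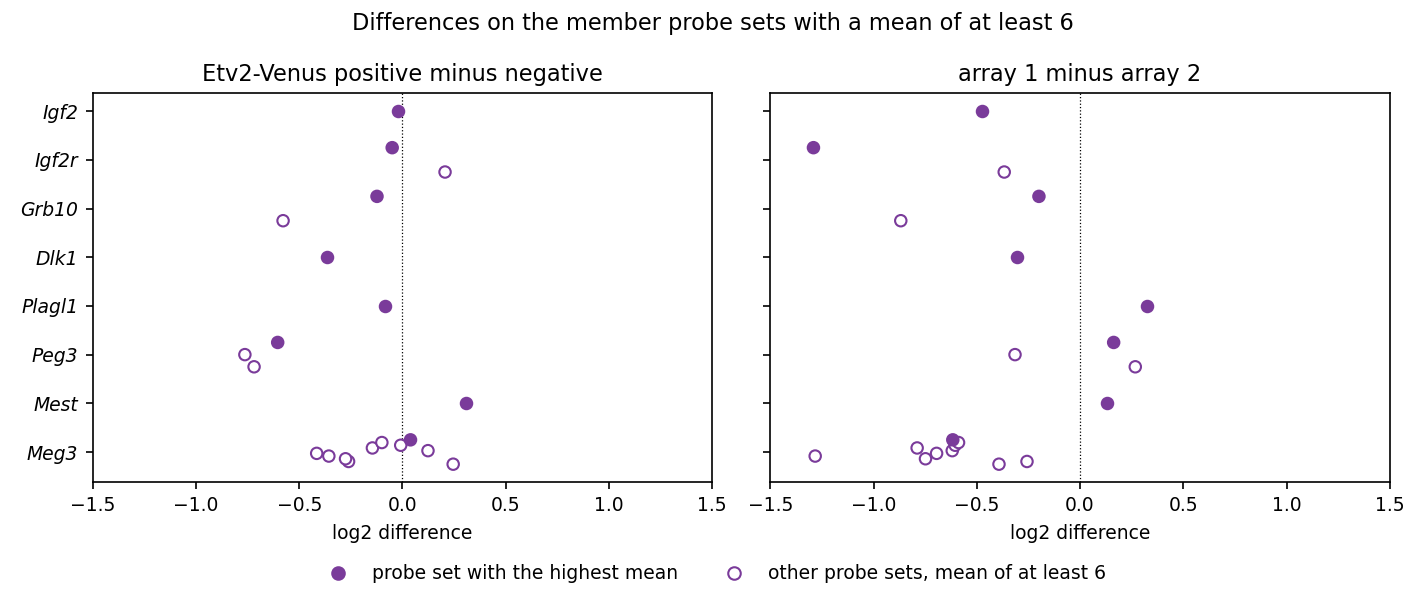
Log2 differences on each of the 21 member probe sets with a mean of at least 6, Etv2-Venus positive minus negative cells left and array 1 minus array 2 right, with filled points for the probe set used for each gene. The 10 Meg3 probe sets lie on both sides of 0 by population and all below 0 by array number, and the 3 Peg3 probe sets lie between -0.76 and -0.60 by population.

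Markers of other cells and controls of RNA quality were read by array number as well. The 24 measured markers of OP9 stroma, fibroblasts and adipocyte precursors had a median of 0.26 for array 1 minus array 2, against 0.06 over all genes. For 13 of the 24 both arrays numbered 1 lay above both numbered 2, a pattern of 29.7% of all genes, and for 2 they lay below, against 11.6%. Their log2 values summed to 178.0 and 162.4 in positive cells, against 181.0 and 171.7 in negative cells. Of markers chosen after their values were seen, Col3a1, a fibrillar collagen, was at 7.73 and 5.39, against 7.86 and 5.90. Adipoq, an adipocyte hormone, was at 7.07 and 5.01, against 7.24 and 6.80. The 2 that lay below, Twist2 and Cebpb, differed by -0.34 (SE 0.11) and -0.30 (SE 0.06) by array number. RMA values have no true zero, and 15 of the 24 markers had a mean of at least 6. For the control transcript Tfrc, the log2 signal at the 3' end exceeded that at the 5' end by 1.91 and 1.21 in positive cells, against 1.46 and 0.85 in negative cells, and for Pcx by 0.92 and 0.58, against 1.06 and 0.85, so both were higher on array 1. The other controls did not follow the array number: for Actb the excess was 0.47 and 0.51 in positive cells, against 0.41 and 0.40 in negative cells, and for Gapdh it was near 0 on every array. Malat1, a nuclear noncoding RNA chosen after its value was seen, had the lowest value by array number of all genes, -3.36 (SE 0.24). The part of stromal cells, RNA length and RNA class in the array number differences was not tested. For Peg3, Dlk1 and Mest the populations differed in the same direction within each array number, which follows from their arrays being apart.

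Other imprinted genes were read from a list, of which 43 of 49 were measured. By population 10 were higher and 12 lower with arrays apart, against 22.4% and 17.0% of all genes. At an unadjusted p under 0.05, 2 were higher and 6 lower, against 7.07% and 4.64%, and 0 passed the adjusted test in limma. Their median was -0.05. Phlda2, a maternally expressed restraint on placental growth, was at 10.31 and 10.71 in positive cells, against 11.91 and 12.11 in negative cells, a difference of -1.51 (SE 0.17; limma adjusted p = 0.0798). Its gap between the populations was larger than that of any of the 8 members. Nnat, a paternally expressed membrane proteolipid, was at 6.32 and 6.34, against 7.24 and 7.78, a difference of -1.18 (SE 0.20). Peg10, which derives from a retrotransposon, was at 6.81 and 6.29, against 7.39 and 7.67, a difference of -0.98 (SE 0.21). Both were lower on each positive array.

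In the other direction, Gab1, a docking protein of receptor tyrosine kinases chosen after its value was seen, was at 10.72 and 10.70 in positive cells, against 9.62 and 9.78 in negative cells. Its difference of 1.01 (SE 0.10; limma adjusted p = 0.0670) had a lower adjusted p than that of Phlda2. Of the other 9 genes higher with arrays apart, Cd81, a tetraspanin, differed by 0.33 (SE 0.10) and Ppp1r9a by 0.30 (SE 0.16), both chosen after their values were seen.

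Smaller differences with positive arrays lower stood at -0.31 (SE 0.11) for Sgce, which shares its cluster with Peg10, -0.29 (SE 0.18) for the noncoding Kcnq1ot1, -0.23 (SE 0.09) for the amino acid transporter Slc38a4 and -0.10 (SE 0.09) for Gnas, which encodes a G protein subunit. Cdkn1c, an inhibitor of cell division from the cluster of Kcnq1ot1 and Phlda2, was at 8.46 and 9.20 in positive cells, against 8.91 and 9.87 in negative cells, and overlapped. Its difference was -0.56 (SE 0.41), being -0.45 on the arrays numbered 1 and -0.67 on those numbered 2. Ndn, of the neuronal necdin family, overlapped at -0.05 (SE 0.12). Dcn and Zim1 had means of 4.81 and 4.11, under the array medians. Rtl1 had no match among the genes measured and was not used here.

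By array number the other imprinted genes had a median of 0.06, as all genes did, with 12 higher and 5 lower on both arrays numbered 1, against 29.7% and 11.6% of all genes. The largest difference in the list was that of Asb4, chosen after its value was seen, which was higher on array 1. It was at 9.99 and 8.60 in positive cells, against 10.27 and 9.41 in negative cells, a difference of 1.13 (SE 0.16) by array number. Rian, a noncoding RNA of the Dlk1 and Meg3 cluster, was among the 5 lower ones at -0.38 (SE 0.06), with 12.43 and 12.80 in positive cells against 12.39 and 12.77 in negative cells. Mirg, of the same cluster and chosen after its value was seen, was at -0.51 (SE 0.08). Airn, a noncoding RNA made from the opposite strand of the Igf2r locus, was at 7.49 and 8.12 in positive cells, against 7.87 and 8.71 in negative cells, a difference of -0.74 (SE 0.08) by array number. Cdkn1c differed by -0.85 (SE 0.09). Ube3a, chosen after its value was seen, completed the 5 at -0.32 (SE 0.08).

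**Figure D4:**
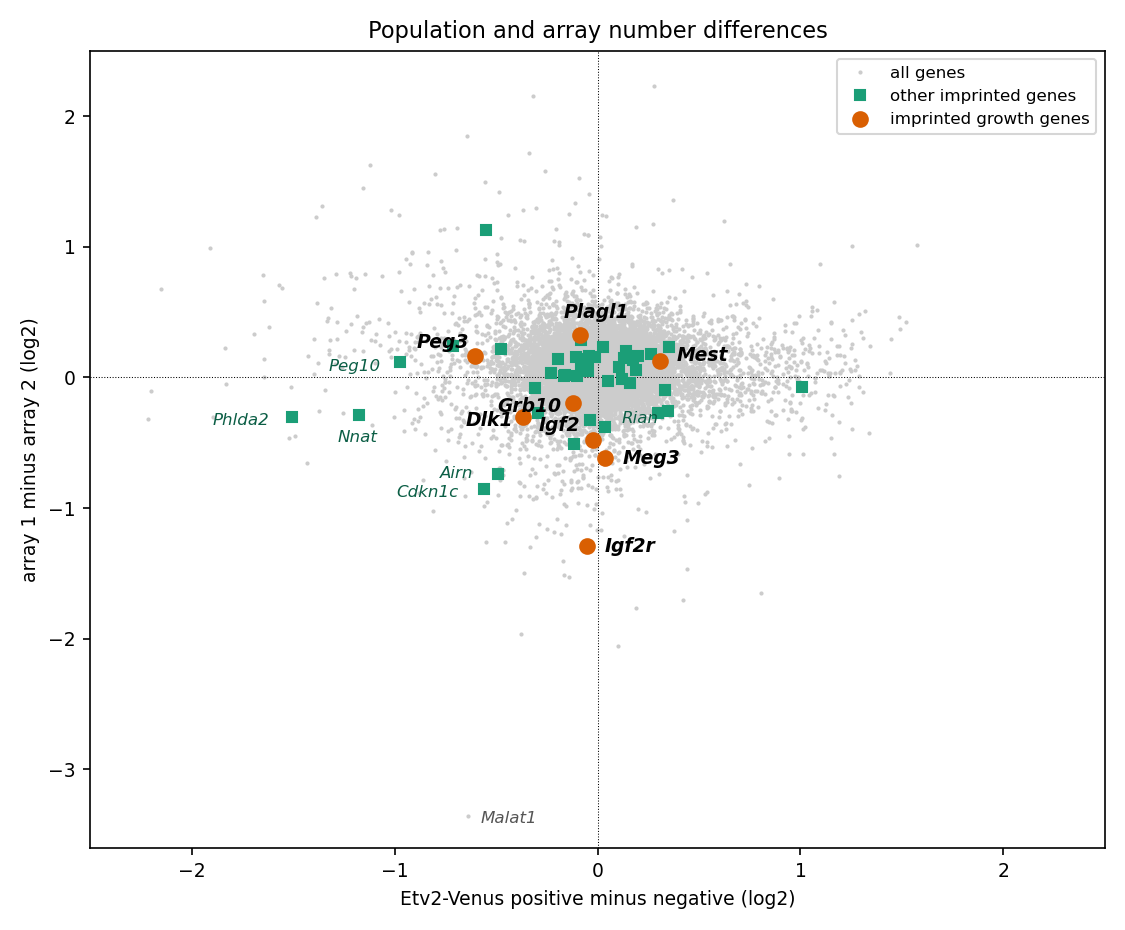
Fitted log2 difference between the populations (Etv2-Venus positive minus negative, horizontal axis) against that between the array numbers (array 1 minus array 2, vertical axis) for all 18193 genes in grey, with 43 other imprinted genes as squares and the 8 imprinted growth genes as circles. Igf2r, Meg3 and Igf2 lie below the centre, near 0 on the population axis, and Peg3 lies to the left at -0.60.

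The signalling pathway that Igf2 feeds was read in 27 of 29 listed genes. By population 7 were higher and 5 lower with arrays apart, near the 22.4% and 17.0% of all genes. At an unadjusted p under 0.05, 2 were higher and 2 lower, against 7.07% and 4.64%, and 0 passed the adjusted test in limma. Igfbp5, a binding protein that holds IGFs outside the cell, was at 7.78 and 7.65 in positive cells, against 7.12 and 6.98 in negative cells, a difference of 0.66 (SE 0.11; limma adjusted p = 0.114). Igfbp3, the main carrier of IGFs in blood, was at 9.87 and 8.95, against 8.72 and 7.91, a difference of 1.10 (SE 0.41). Both were higher on each positive array, and Igfbp3 was also higher on array 1, by 0.87 (SE 0.07). The 2 lower ones, both chosen after their values were seen, had means just under 6. Pappa, a protease that cuts IGF binding proteins, was at 5.59 and 5.30 in positive cells, against 6.47 and 6.45 in negative cells, a difference of -1.02 (SE 0.13; limma adjusted p = 0.0882). Irs4, a relative of Irs1, differed by -0.90 (SE 0.16; limma adjusted p = 0.131). Igfbp2 was at 9.75 and 8.98, against 10.85 and 9.71, and overlapped, at a difference of -0.92 (SE 0.46). Within the arrays numbered 1 it differed by -1.10 and within those numbered 2 by -0.73. Igfbp4 overlapped too, at a difference of 0.17 (SE 0.15).

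Igf1r, the receptor through which IGF2 signals growth, was at 8.72 and 8.86 in positive cells, against 8.96 and 9.08 in negative cells, a difference of -0.23 (SE 0.10). Irs1, the docking protein below it, differed by -0.33 (SE 0.16), and both had lower values on each positive array. Insr, the insulin receptor, overlapped at 0.09 (SE 0.10). Igf1, at a mean of 5.36, lay near the array medians. Igf2bp1 and Igf2bp3, which bind Igf2 messenger RNA, overlapped at 0.02 (SE 0.09) and -0.04 (SE 0.15). Igf2bp2 had no match and was not used here. By array number Igf2bp3 differed by -0.28 (SE 0.06) and Igf2bp1 by 0.03 (SE 0.07).

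Of 18 genes that copy, protect or remove DNA methylation at imprints, 17 were measured. By population 3 were higher and 5 lower with arrays apart, against 22.4% and 17.0% of all genes, and 0 had an unadjusted p under 0.05 in limma. Dnmt1, which copies methylation at replication, was at 11.38 and 11.15 in positive cells, against 11.13 and 11.08 in negative cells. Tet1, which oxidises methylated cytosine, was at 9.17 and 9.03, against 9.52 and 9.28, a difference of -0.30 (SE 0.12). Tet1 was lower on both positive arrays and Dnmt1 higher, in each case by less than the test could separate. Dnmt3b differed by -0.20 (SE 0.10), and Ctcf, which binds the unmethylated control region between Igf2 and H19, by 0.19 (SE 0.10). Zfp57 and Trim28, which keep methylation at imprints, overlapped at -0.0009 (SE 0.11) and -0.05 (SE 0.10). Dnmt3a, which sets new methylation, was at 8.88 and 10.14, against 9.04 and 10.05, and differed by -1.13 (SE 0.10) by array number.

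Igf2r was the only member whose values spanned at least 1 log2 unit over the arrays. The genes with the most similar values, after centring each on its own mean over the 4 arrays, were looked for among 10171 genes with a mean of at least 6. The nearest were Dnajc3, at a Euclidean distance of 0.13, Map1b, at 0.16, and Nol8, at 0.18 log2 units. Dnajc3 was at 10.40 and 11.53 in positive cells, against 10.37 and 11.57 in negative cells, so it too was lower on the arrays numbered 1. Such likeness over 4 arrays is a description.

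Promoter sequences from RefSeq (GRCm38.p6), from 250 bases before to 50 after a start site, were given for all 8 members, in 15 windows. These held 1 to 45 CG dinucleotides with a median of 13, against a median of 7 over 32851 promoters. The richest were 1 of the 2 Grb10 windows, at 45, and the Igf2r window, at 34, while the other Grb10 window held 9. On both strands 4 motifs were searched: the ETS core CCGGAA, which ETS factors such as Etv2 can bind, the cAMP response element TGACGTCA, the core GGGGCCCC of the Plagl1 motif, and the TATA box TATAAA. The share of all promoters with a match was 14.9% for the ETS core, 1.79% for the cAMP response element, 1.08% for the Plagl1 core and 13.6% for the TATA box. Of the 15 windows, 2 held the cAMP response element, 1 of Peg3 and 1 of Meg3, and the other motifs were each in 1 window. They are printed because Peg3 was the member furthest apart between the populations and Meg3 the one with the most probe sets. Capitals mark the matches, in Peg3 the Plagl1 core and then the cAMP response element. In Meg3 they mark the ETS core (read on the other strand), the cAMP response element and 2 overlapping TATA boxes, 1 on each strand. A match describes letters only. The Peg3 window lies at chr7:6730370-6730669 on the minus strand and the Meg3 window at chr12:109540746-109541045 on the plus strand.
Peg3: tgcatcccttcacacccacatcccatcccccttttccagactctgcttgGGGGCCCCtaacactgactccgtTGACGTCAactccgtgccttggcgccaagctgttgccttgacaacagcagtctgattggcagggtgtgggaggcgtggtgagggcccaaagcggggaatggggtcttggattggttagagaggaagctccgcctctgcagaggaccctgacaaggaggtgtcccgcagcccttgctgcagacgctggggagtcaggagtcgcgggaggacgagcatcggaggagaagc
Meg3: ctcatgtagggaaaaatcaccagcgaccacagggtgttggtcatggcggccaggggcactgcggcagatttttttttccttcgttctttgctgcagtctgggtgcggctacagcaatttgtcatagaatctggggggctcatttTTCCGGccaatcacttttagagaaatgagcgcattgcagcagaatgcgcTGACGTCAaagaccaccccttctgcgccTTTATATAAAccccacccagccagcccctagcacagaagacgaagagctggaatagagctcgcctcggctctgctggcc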

How the data were processed

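RNA of 4 sorted samples was labelled by 3' in vitro transcription, per the labels. Per the submitters' processing notes, the authors ran RMA in R 2.8.0, and the deposited value of each probe set is on the log2 scale, as its range of 2.16 to 14.93 shows. RMA gives the arrays a shared distribution, so values are relative. Scanner files and detection calls were not used here. Sample titles gave the population and the number of each array.

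Symbols are those of GEO's platform annotation, checked by Entrez identifier against RefSeq (GRCm38.p6). Of 45101 probe sets, 64 were controls, 34945 had 1 symbol, 932 several and 9160 none. The 34741 matched identifiers changed 0 symbols. Each of 18193 genes was read on its probe set with the highest mean. limma 3.58.1 in R 4.3.3 (lmFit and eBayes, two-sided) fitted the population alone, with 2 residual degrees of freedom, and for the array number both terms, with 1. Benjamini-Hochberg adjustment ran over all genes, at a threshold of 0.05. Both fits were run on simulated data with noise drawn independently for each array. These lacked the correlation between array number differences of the 2 populations seen in the real data, so the run does not cover it. Arrays are apart when all arrays of 1 group lie above all of the other.

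The members, the lists and the genes named from them were chosen with earlier results of these data known. Named are the members on all probe sets, a fixed part of each list, the checks of the sort and the 3 genes nearest to a member that spans at least 1 log2 unit. Any other gene is said to be chosen after its value was seen. Listed genes without a match were not used here. Alternatives changed the probe set rule, the floor (6), the variance model, the normalization or the arrays used, or added the array number as a block. Figures were drawn with matplotlib 3.10.9.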

Additional observations from a re-analysis of the deposited data

Results flagged for a closer look

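The population difference of Igf2 had opposite signs on the arrays numbered 1 and 2, at -0.05 and 0.00 (unrounded -0.0467 and 0.0035). That of Meg3 also did, at -0.10 and 0.18 (unrounded -0.1007 and 0.1785). Each number holds 1 array of each population, so the difference between the numbers was not tested.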

How the results depend on the processing

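Of 96 values of the 8 members' population differences under 12 alternatives, 83 kept their direction and their side of the threshold, 12 changed sign and 1 passed the threshold. Changes of sign came from leaving out 1 array (8 of 32 values) and from 4 of 64 other values. Settings that altered only the variance model, the genes or probe sets tested, or the block left each difference as it was. In those settings only the side of the threshold could change. Averaging a gene's probe sets turned Igf2 to 0.0166, Igf2r to 0.0781 and Meg3 to -0.11, and Igf2 became 0.0176 with arrays centred on their medians. Without 1 array, Igf2 ran from -0.27 to 0.23, Igf2r from -0.71 to 0.61, Meg3 from -0.34 to 0.42 and Plagl1 from -0.29 to 0.11; these members differed more by array number than by population. Dlk1 (main value -0.37) became -0.18 without negative array 2, -0.24 without positive array 1 and -0.55 without negative array 1, Mest (0.31) became 0.20 without negative array 2, and Grb10 (-0.12) ran from -0.24 to -0.01. The median over the members ran from -0.31, without positive array 2, to 0.0947, without negative array 2, and was 0.0942 without positive array 1 (main value -0.07). Members with arrays apart ran from 4 to 7 (main value 3), as fewer arrays overlap less often. Genes called between the populations, 0 in the main setting, were 79 with a mean of at least 6 and 112 with a variance trend and robust estimation. With a mean of at least 6, fewer genes are tested and the variance model is also fitted on those genes alone. With the array number as a replicate block 0 genes were called, and 977 with the block, trend and robust estimation together, where Peg3 passed at -0.60 (limma adjusted p = 0.0167). The labels do not say that the numbers pair the samples. The array 1 minus array 2 differences of the populations correlated at 0.543 over genes, which are not independent. Between the array numbers, 229 genes were called with a mean of at least 6 and 146 with a variance trend and robust estimation. The median over the members stayed below 0 in all 6 alternatives, though those that altered only the variance model or the genes tested could not move it. Of 48 member values by array number, 1 changed sign: Plagl1, which became 0.00 (unrounded -0.0027) when its probe sets were averaged. The causes of these shifts were otherwise not tested. The number of arrays and the values near the array medians limit the precision.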
